A study of Mus musculus with 6 samples.

Results

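The transcripts described here are 31 genes of microglia, phagocytes and the complement system, measured in sorted mouse photoreceptors. The genes form a list of symbols, and each was found by its symbol in the count table of every library, so that 31 of 49997 genes were taken. They were grouped by role as 5 complement genes, 7 genes of homeostatic microglia, 10 genes shared by myeloid cells, 8 genes of disease-associated microglia and Lcn2, a secreted protein of reactive cells. RNA was sequenced in 6 libraries, each from the 2 retinas of 1 Rosa26-Cas9 mouse, a strain that expresses SpCas9 in all cells. In the Nr2e3 guide group (3 libraries) an adeno-associated virus carried a guide RNA against Nr2e3, and in the control group (NTC, 3 libraries) a non-targeting guide. The virus of both groups also carried mCherry under a human GRK1 promoter, which restricts the reporter to photoreceptors, and close to 100000 cells with mCherry were collected from each animal by flow cytometry, 6 months after injection into the subretinal space. The age at injection is given as postnatal day 21 in the series text and as 4 weeks in the treatment protocol. Nr2e3 guide replicate 1 was male, Nr2e3 guide replicates 2 and 3 were female, and the 3 NTC animals were male.

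Microglia are the resident macrophages of the retina. In the healthy tissue they survey the synaptic layers, and when photoreceptors are damaged they enter the outer retina and clear dying cells and debris. The sensors and receptors of the surveying state are usually lowered, and a set of lipid, lysosomal and adhesion genes is usually raised, when microglia move into the state termed disease-associated. Full entry into that state, though not its first step, depends on the receptor Trem2 and its adaptor Tyrobp. Complement marks material for uptake: the C1q complex, built from the products of C1qa, C1qb and C1qc, binds the target, C4 and C3 are then cleaved, and receptors that include Itgam take up what C3 fragments coat. None of these genes is known as a photoreceptor gene, and their counts in this photoreceptor sort were a small part of each library.

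Many myeloid genes are controlled by the factor PU.1, the product of Spi1. The start regions of C1qb, the complement member with the highest level, and of the members C1qc, Ctss and Cd68, which hold a searched motif, are shown for that reason. Each runs from 250 bases before to 50 bases after the start site, 5′ to 3′ on the strand of the gene, from RefSeq with build GRCm38.p6. Capitals mark a motif, and a sequence without capitals holds neither. The motifs searched on both strands were GAGGAAGT for PU.1, whose reverse complement is ACTTCCTC, and the composite element of PU.1 with an interferon regulatory factor. Both contain the letters GGAA, and no matches overlapped in these regions.
C1qb, chr4:136886151-136886450, minus strand: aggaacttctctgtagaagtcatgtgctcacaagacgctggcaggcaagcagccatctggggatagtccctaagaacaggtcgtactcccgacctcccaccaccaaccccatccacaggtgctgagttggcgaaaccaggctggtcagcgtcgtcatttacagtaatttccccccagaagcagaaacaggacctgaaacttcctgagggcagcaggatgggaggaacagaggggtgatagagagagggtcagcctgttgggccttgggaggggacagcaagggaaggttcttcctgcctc
C1qc, chr4:136892865-136893164, minus strand: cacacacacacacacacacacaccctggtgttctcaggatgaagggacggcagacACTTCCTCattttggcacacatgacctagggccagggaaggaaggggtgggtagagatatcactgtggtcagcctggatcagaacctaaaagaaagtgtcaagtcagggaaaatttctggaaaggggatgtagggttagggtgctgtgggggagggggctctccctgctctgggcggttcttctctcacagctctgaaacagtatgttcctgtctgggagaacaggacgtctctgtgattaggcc
Ctss, chr3:95526536-95526835, plus strand: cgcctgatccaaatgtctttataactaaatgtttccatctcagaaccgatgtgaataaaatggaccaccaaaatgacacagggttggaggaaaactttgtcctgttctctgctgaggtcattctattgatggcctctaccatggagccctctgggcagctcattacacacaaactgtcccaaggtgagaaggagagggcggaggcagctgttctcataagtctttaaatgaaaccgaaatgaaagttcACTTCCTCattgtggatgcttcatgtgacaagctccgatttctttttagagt
Cd68, chr11:69666121-69666420, minus strand: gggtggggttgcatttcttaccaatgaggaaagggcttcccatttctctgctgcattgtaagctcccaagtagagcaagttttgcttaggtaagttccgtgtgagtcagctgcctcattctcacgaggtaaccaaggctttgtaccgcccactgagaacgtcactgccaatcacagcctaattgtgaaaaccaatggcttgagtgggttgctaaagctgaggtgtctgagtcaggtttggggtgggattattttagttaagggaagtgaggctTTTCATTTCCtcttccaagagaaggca
Start regions were held for 22 of the 31 members. The PU.1 motif was in 3 of them, C1qc (beginning 195 bases before the start site), Ctss (beginning 2 bases before it and running across it) and Spp1, against 3.69% of the 27025 genes with a start region. The composite element was in 1 of the 22, Cd68, beginning 23 bases after the start site, against 3.16% of those genes. A match describes letters in the window and is not a site.

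Library totals ran from 24705561 to 33098812 gene counts in Nr2e3 guide libraries and from 32626751 to 34286248 in NTC libraries, so that 3 counts were worth 0.0875 to 0.121 CPM. CPM is the count of a gene per 1000000 gene counts of its library, and all levels below are CPM. The 7 rod markers checked, among them Sag, summed to between 134980 and 142675 CPM in Nr2e3 guide libraries and between 143480 and 159751 CPM in NTC libraries, as the photoreceptor label says. Nr2e3 was at 2024, 1773 and 2303 CPM in Nr2e3 guide libraries and at 1695, 1608 and 1645 CPM in NTC libraries, so that every Nr2e3 guide library lay above every NTC library (log2 fold change 0.37, SE 0.13, edgeR adjusted p = 0.716). No value here measures editing of the gene. NTC replicate 3 stood apart from the other NTC libraries: 3.91% of the 17138 genes tested were at least 4-fold above the mean of NTC replicates 1 and 2 there. Log2 fold changes of members are therefore given with and without it.

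The 31 members together made up 88.5, 266 and 251 CPM in Nr2e3 guide replicates 1, 2 and 3, and 86.1, 96.4 and 568 CPM in NTC replicates 1, 2 and 3. Nr2e3 guide replicate 1 was thus close to NTC replicates 1 and 2, Nr2e3 guide replicates 2 and 3 lay about 3 times higher, and NTC replicate 3 was the highest. The mean was 202 ± 98.3 CPM in Nr2e3 guide and 250.01 ± 275 CPM in NTC libraries (SD, n = 3 each), and 2.21-fold higher in Nr2e3 guide libraries when NTC replicate 3 was left out. In these bulk samples more cells of a type and more RNA per cell cannot be told apart. Of the 31 members, 29 were higher in NTC replicate 3 than in both other NTC libraries, the exceptions being Lgals3 and Lpl, against 50.7% of all genes tested. Likewise 24 members were higher in Nr2e3 guide replicates 2 and 3 than in Nr2e3 guide replicate 1, against 30.5% of all genes tested. The 2 higher Nr2e3 guide libraries are those of the female mice, so that among Nr2e3 guide animals sex and the level of these transcripts cannot be told apart.

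**Figure D1:**
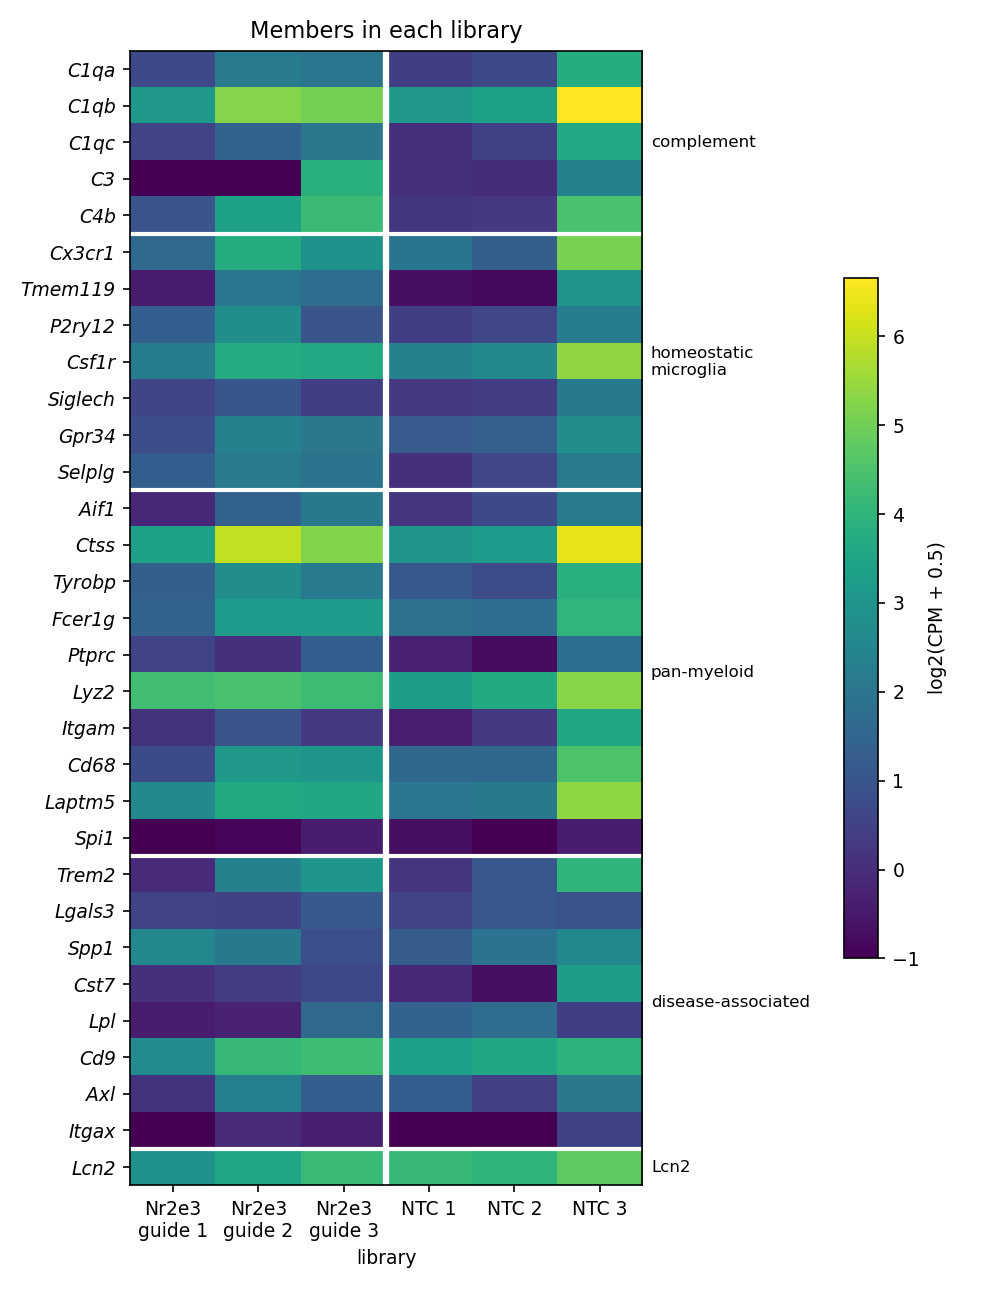
Level of each of the 31 members (rows, by role) in each library (columns), as log2(CPM + 0.5) on the colour scale. NTC 3 is the brightest column for 23 of the 31 members, and Nr2e3 guide 2 and 3 are brighter than Nr2e3 guide 1 for 24.

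Complement transcripts spanned the widest range of the role groups. C1qb (GRCm38 chromosome 4, 136880126 to 136886200), which encodes the B chain of C1q, was at 8.21, 37.9 and 32.9 CPM in Nr2e3 guide replicates 1 to 3 and at 8.09, 9.999 and 101 CPM in NTC replicates 1 to 3. The groups overlapped, and the log2 fold change of Nr2e3 guide over NTC was -0.44 (SE 0.96, edgeR adjusted p = 0.995), or 1.57 (SE 0.60, adjusted p = 0.516) without NTC replicate 3. C1qa, the A chain, was at 1.10, 3.93 and 3.53 CPM in Nr2e3 guide libraries and at 0.828, 1.12 and 12.9 CPM in NTC libraries. C1qc, the C chain, was at 0.990, 2.15 and 3.57 CPM in Nr2e3 guide libraries and at 0.552, 0.914 and 11.8 CPM in NTC libraries. In all 3 chain genes NTC replicate 3 was the highest library and NTC replicate 1 the lowest.

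The 3 chains are assembled in equal numbers into C1q, and their transcripts were counted at unequal levels. Per kilobase of exon, the level of C1qb over that of C1qa was 7.14, 9.22 and 8.91 in Nr2e3 guide libraries and 9.35, 8.53 and 7.47 in NTC libraries, with means of 8.42 ± 1.12 and 8.45 ± 0.939 (SD, n = 3 each). The level of C1qc over that of C1qa, also per kilobase, was 0.485, 0.294 and 0.543 in Nr2e3 guide libraries and 0.359, 0.439 and 0.492 in NTC libraries. For both ratios the groups overlapped, with means that differed by less than either SD. C1qb itself differed 12.4-fold in CPM between the lowest and the highest library.

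C4b (chromosome 17, 34728139 to 34743902), the C4 component of the classical pathway, was at 1.54, 10.04 and 18.2 CPM in Nr2e3 guide libraries and at 0.674, 0.708 and 21.6 CPM in NTC libraries. NTC replicate 3 was again the highest and the other NTC libraries the lowest. Its log2 fold change was 0.51 (SE 1.32, edgeR adjusted p = 0.995), or 3.84 (SE 0.97, adjusted p = 0.272) without NTC replicate 3. C4b has a near-identical copy, C4a, and reads that fit both may be missing from either. C3, the component on which all complement pathways meet, had a pattern of its own: it had 0, 0 and 465 counts in Nr2e3 guide libraries and 17, 16 and 159 counts in NTC libraries. As levels these are 0, 0 and 14.0 CPM in Nr2e3 guide libraries and 0.521, 0.472 and 4.64 CPM in NTC libraries, so that Nr2e3 guide replicate 3 was higher than NTC replicate 3 and the other Nr2e3 guide libraries had no count.

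The homeostatic members summed to 13.2, 45.4 and 30.8 CPM in Nr2e3 guide libraries and to 12.01, 12.8 and 101 CPM in NTC libraries. Csf1r (chromosome 18, 61105572 to 61131139), the receptor for the growth factors that keep microglia alive, was at 4.22, 12.5 and 11.8 CPM in Nr2e3 guide libraries and at 4.66, 5.90 and 41.2 CPM in NTC libraries (log2 fold change -0.72, SE 0.82, edgeR adjusted p = 0.995). Without NTC replicate 3 its log2 fold change was 0.88 (SE 0.48, adjusted p = 0.710). Cx3cr1, the receptor for the neuronal chemokine fractalkine, was at 2.57, 12.8 and 6.92 CPM in Nr2e3 guide libraries and at 3.40, 2.01 and 34.2 CPM in NTC libraries. In both genes NTC replicate 3 was the highest of the 6 libraries and Nr2e3 guide replicate 1 was among the 3 lowest.

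Tmem119 (chromosome 5, 113793729 to 113800396), a membrane protein used to tell microglia from other macrophages, was at 0.257, 3.52 and 2.84 CPM in Nr2e3 guide libraries and at 0.123, 0.0590 and 7.38 CPM in NTC libraries. The values of NTC replicate 2 rested on 2 counts and those of NTC replicate 1 on 4. Its log2 fold change was -0.033 (SE 1.54, edgeR adjusted p = 0.998), or 4.57 (SE 1.25, adjusted p = 0.302) without NTC replicate 3. P2ry12, the receptor by which microglial processes sense nucleotides, was highest in Nr2e3 guide replicate 2: it was at 1.94, 6.56 and 1.51 CPM in Nr2e3 guide libraries and at 0.828, 1.03 and 4.26 CPM in NTC libraries. Selplg, the ligand of selectins, was at 1.94, 3.93 and 3.32 CPM in Nr2e3 guide libraries and at 0.521, 1.03 and 3.91 CPM in NTC libraries (log2 fold change 0.88, SE 0.70, edgeR adjusted p = 0.995), or 2.01 on the log2 scale (SE 0.54, adjusted p = 0.292) without NTC replicate 3. P2ry12 and Selplg were the homeostatic members in which NTC replicate 3 was not the highest library. Gpr34, a receptor for lysophosphatidylserine, ran from 1.25 to 4.53 CPM in Nr2e3 guide libraries and from 1.78 to 6.30 CPM in NTC libraries. Siglech, a sialic acid receptor, ran from 0.846 to 1.58 CPM in Nr2e3 guide libraries and from 0.705 to 3.76 CPM in NTC libraries. Exons of Csf1r, Cx3cr1 and P2ry12 overlap another gene on the opposite strand, and the library kit does not mark strand, so their counts can hold reads of the partner.

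Among the genes shared by myeloid cells, Ctss (chromosome 3, 95526786 to 95556405), which encodes the lysosomal protease cathepsin S, was at 9.86, 62.0 and 37.5 CPM in Nr2e3 guide libraries and at 7.33, 8.91 and 85.0 CPM in NTC libraries (log2 fold change 0.27, SE 0.98, edgeR adjusted p = 0.996). Without NTC replicate 3 its log2 fold change was 2.21 (SE 0.70, adjusted p = 0.390). Per kilobase of exon, the mean level over the 6 libraries was 30.3 CPM for C1qb, 25.8 CPM for Ctss and 15.2 CPM for Lyz2, the highest of the 31 members. Lyz2 (chromosome 10, 117277541 to 117282272), the lysozyme of macrophages and neutrophils, was the member with the smallest spread among Nr2e3 guide libraries relative to its level. It was at 19.1, 21.7 and 18.6 CPM in Nr2e3 guide libraries and at 9.16, 12.2 and 39.0 CPM in NTC libraries (log2 fold change 0.095, SE 0.48, edgeR adjusted p = 0.997), or 0.92 on the log2 scale (SE 0.23, adjusted p = 0.274) without NTC replicate 3. Each Nr2e3 guide library lay above NTC replicates 1 and 2 and below NTC replicate 3. Reads shared with its close copy Lyz1 may be missing.

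The adaptors that carry an activating tail for myeloid receptors were also highest in NTC replicate 3. Tyrobp, the adaptor of Trem2, was at 1.98, 6.35 and 3.84 CPM in Nr2e3 guide libraries and at 1.66, 1.21 and 14.1 CPM in NTC libraries. Fcer1g, the shared chain of Fc receptors, was at 2.20, 8.70 and 8.76 CPM in Nr2e3 guide libraries and at 3.16, 2.89 and 15.9 CPM in NTC libraries. Cd68, a lysosomal glycoprotein of phagocytes, was at 1.14, 8.38 and 7.58 CPM in Nr2e3 guide libraries and at 2.51, 2.51 and 23.1 CPM in NTC libraries. In Fcer1g and Cd68 the values of Nr2e3 guide replicate 1 were the lowest of all 6. Laptm5, a lysosomal membrane protein of blood cells, was at 5.87, 12.1 and 11.5 CPM in Nr2e3 guide libraries and at 3.56, 3.75 and 40.8 CPM in NTC libraries (log2 fold change -0.56, SE 0.89, edgeR adjusted p = 0.995). Without NTC replicate 3 its log2 fold change was 1.46 (SE 0.38, adjusted p = 0.282). Itgam, a chain of the receptor for C3 fragments, stood out for NTC replicate 3: it was at 0.587, 1.54 and 0.695 CPM in Nr2e3 guide libraries and at 0.276, 0.708 and 11.5 CPM in NTC libraries, and its exons overlap Gm49368 on the same strand.

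Aif1, a calcium-binding protein used to stain microglia, ran from 0.403 to 3.78 CPM in Nr2e3 guide libraries and from 0.613 to 3.85 CPM in NTC libraries. Ptprc, the common leukocyte phosphatase, ran from 0.526 to 1.96 CPM in Nr2e3 guide libraries and from 0.0885 to 3.004 CPM in NTC libraries. Spi1, which encodes PU.1, was close to absent, with 0, 1 and 8 counts in Nr2e3 guide libraries and 4, 0 and 9 counts in NTC libraries, and it did not pass the filter on low counts. It was therefore not tested.

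The disease-associated members did not share a common order of libraries. Trem2 (chromosome 17, 48346401 to 48352276), the lipid receptor on which full entry into the state depends, was at 0.440, 4.65 and 7.76 CPM in Nr2e3 guide libraries and at 0.613, 1.59 and 15.5 CPM in NTC libraries (log2 fold change -0.33, SE 1.22, edgeR adjusted p = 0.996). Without NTC replicate 3 its log2 fold change was 1.98 (SE 1.03, adjusted p = 0.690). Cst7, a protease inhibitor of lysosomes, was at 0.550, 0.810 and 1.09 CPM in Nr2e3 guide libraries and at 0.398, 0.118 and 9.07 CPM in NTC libraries, so that NTC replicate 3 was 35.1-fold above the mean of the other NTC libraries and no Nr2e3 guide library came near it. Itgax, an integrin chain of dendritic cells and activated microglia, had 0, 11 and 10 counts in Nr2e3 guide libraries and 0, 0 and 32 counts in NTC libraries, too few to pass the filter. With a limit of 3 counts per library, it was at least 10.2-fold higher in NTC replicate 3 than in either other NTC library.

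Cd9 (chromosome 6, 125460266 to 125494760), a tetraspanin that glia and other cells also express, was at 5.98, 16.8 and 18.8 CPM in Nr2e3 guide libraries and at 9.59, 11.4 and 15.02 CPM in NTC libraries (log2 fold change 0.29, SE 0.41, edgeR adjusted p = 0.995), or 0.42 on the log2 scale (SE 0.46, adjusted p = 0.896) without NTC replicate 3. Spp1, which encodes osteopontin, was at 5.46, 3.76 and 1.33 CPM in Nr2e3 guide libraries and at 1.87, 3.30 and 5.45 CPM in NTC libraries. Here Nr2e3 guide replicate 1, low for most members, was as high as NTC replicate 3. Lpl, a lipase of the vessel wall and of lipid-laden macrophages, was at 0.257, 0.324 and 2.66 CPM in Nr2e3 guide libraries and at 2.15, 2.80 and 0.846 CPM in NTC libraries, and NTC replicate 3 was below the other NTC libraries. Axl, a receptor for phosphatidylserine bridges, ran from 0.587 to 4.41 CPM in Nr2e3 guide libraries and from 0.855 to 3.65 CPM in NTC libraries. Lgals3, a galactoside-binding lectin, was flat, from 0.931 to 1.69 CPM in Nr2e3 guide libraries and from 0.950 to 1.62 CPM in NTC libraries. Exons of Cd9 and Spp1 overlap those of another gene.

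Lcn2 (chromosome 2, 32384637 to 32387739), a secreted iron-carrier-binding protein of reactive glia and neutrophils, was at 7.11, 10.8 and 17.8 CPM in Nr2e3 guide libraries and at 17.2, 15.3 and 26.8 CPM in NTC libraries. Nr2e3 guide replicates 1 and 2 lay below every NTC library and Nr2e3 guide replicate 3 lay among them. The log2 fold change was -0.66 (SE 0.35, edgeR adjusted p = 0.959), the smallest p of the members tested, and -0.44 (SE 0.36, adjusted p = 0.849) without NTC replicate 3.

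Over all members, no change with the Nr2e3 guide passed the test. Of the 31 members, 29 passed the filter on low counts and were tested among 17138 genes. By edgeR 0 of the 29 were called at an adjusted p under 0.05, against 0.344% of all genes tested, and 0 had an unadjusted p under 0.05, against 5.69%. DESeq2 gave no p for C3, Cst7 and Itgam. It called 0 of the other members, against 1.58% of all genes, and 0 had an unadjusted p under 0.05, against 6.83%. By limma-voom 0 passed, against 1.04% of all genes, and 5 had an unadjusted p under 0.05, against 11.5%. A member that misses the threshold is not shown to be equal in the groups: the standard errors ran up to 1.91 for C3 on the log2 scale. The log2 fold change was positive for 12 of the 29 members and negative for 17, with a median of -0.10, beside a median of -0.014 over all genes tested. The Nr2e3 guide and NTC libraries overlapped for 31 of 31 members, while they did not overlap for 12.2% of all genes tested.

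Without NTC replicate 3 the log2 fold change was positive for 26 of 29 members, with a median of 1.46, beside 0.0089 over all 17797 genes tested. As 29 of the 31 members were higher in that library than in both other NTC libraries, leaving it out lowers their NTC mean. The counts without it therefore reflect in part which library was left out. By edgeR 0 of the 29 then passed, against 0.5% of all genes, and 12 had an unadjusted p under 0.05, all of them higher in Nr2e3 guide libraries, against 5.02% of all genes higher at that p. DESeq2 without that library was a fit added after the data were seen, and it gave no p for C3. It called 5 of the other members, all higher, against 1.87% of all genes called higher. These were C4b (log2 fold change 3.84, adjusted p = 0.0001), Tmem119 (4.62, adjusted p = 0.00626), Lyz2 (0.92, adjusted p = 0.0215), Laptm5 (1.45, adjusted p = 0.0229) and Selplg (2.01, adjusted p = 0.0454). All 3 Nr2e3 guide libraries were above NTC replicates 1 and 2 for 12 of the 31 members, against 11.3% of all genes tested. Among males alone, where the single library Nr2e3 guide replicate 1 stands against the 3 NTC libraries and is assumed to vary as they do, 26 of 30 members had a negative log2 fold change and 4 a positive one, beside 46.4% of all genes with a positive one. This contrast includes NTC replicate 3, and the member sum in Nr2e3 guide replicate 1, 88.5 CPM, lay between those of NTC replicates 1 and 2. Of these members 0 passed by edgeR, against 0.0% of all genes, with 4 at an unadjusted p under 0.05, against 8.94% of all genes.

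**Figure D2:**
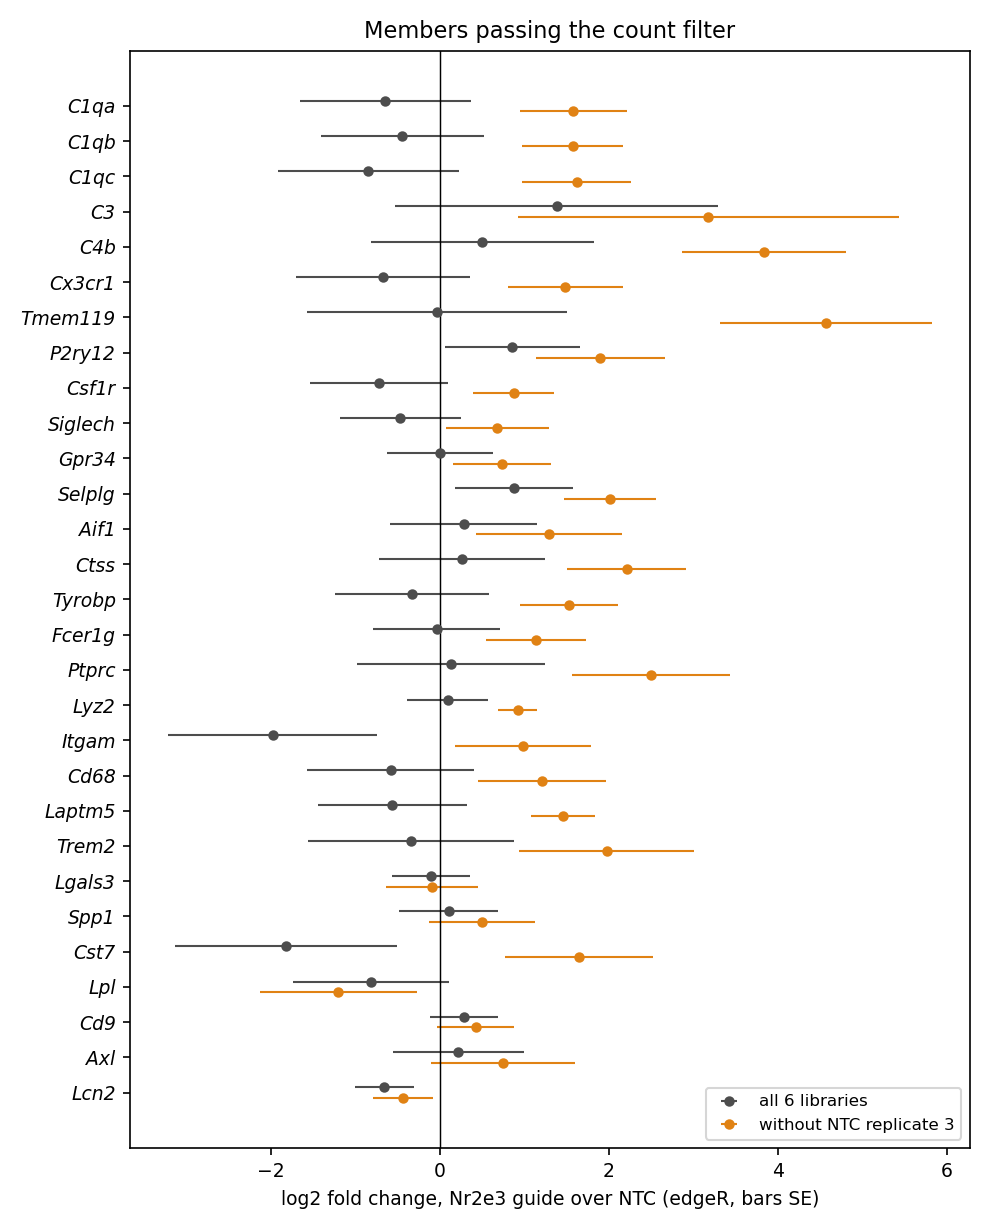
Log2 fold change of Nr2e3 guide over NTC for the 29 members that passed the count filter (edgeR, bars are SE), with all 6 libraries (grey) and without NTC replicate 3 (orange). The median is -0.10 with all libraries and 1.46 without NTC replicate 3, and Lgals3, Lpl and Lcn2 stay below 0 in both.

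The balance of homeostatic and disease-associated members was then taken within each library. This ratio does not remove the total amount of these transcripts, because the sums did not rise equally. In NTC replicate 3 the homeostatic sum was 8.12-fold above the mean of NTC replicates 1 and 2, and the disease-associated sum 2.65-fold. Summed CPM of the 7 homeostatic members over that of the 8 disease-associated members was 0.928, 1.41 and 0.863 in Nr2e3 guide libraries and 0.685, 0.592 and 1.94 in NTC libraries. The groups overlapped, and NTC replicate 3, with the most of both kinds, had the highest ratio. On the log2 scale the mean was 0.060 ± 0.38 in Nr2e3 guide and -0.11 ± 0.93 in NTC libraries (SD, n = 3 each), a difference of 0.17 that is smaller than either SD. Leaving out each library in turn, the difference ran from -0.15 without NTC replicate 2 to 0.71 without NTC replicate 3, and it was also below 0 without Nr2e3 guide replicate 2 (-0.045) or NTC replicate 1 (-0.040). With means of log2(CPM + 0.5) in place of sums the difference was 0.39, and Nr2e3 guide replicate 2 was the highest library (1.12, against 1.03 in NTC replicate 3). As a ratio over chosen genes it carries no test.

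Cd9 was the largest single part of the disease-associated sum in every library except NTC replicate 3, and Cd9, Lpl, Axl, Spp1 and Lgals3 are also made by other cells. With Trem2, Cst7 and Itgax alone as the disease-associated members, the ratio was 13.3, 7.68 and 3.36 in Nr2e3 guide replicates 1 to 3 and 11.9, 7.50 and 3.95 in NTC replicates 1 to 3. On the log2 scale the mean was 2.81 ± 1.001 in Nr2e3 guide and 2.82 ± 0.80 in NTC libraries (SD, n = 3 each), a difference of -0.011. In this ratio the replicate-3 library of each group was the lowest, and NTC replicate 3 was the lowest NTC library, where it was the highest by the full sum. The divisor rests on few counts in some libraries. Trem2, Cst7 and Itgax had 12, 15 and 0 counts in Nr2e3 guide replicate 1, 20, 13 and 0 in NTC replicate 1, and 54, 4 and 0 in NTC replicate 2. The replicate-3 libraries also had the lowest shares of mitochondrially encoded counts, 1.31% in Nr2e3 guide replicate 3 and 1.27% in NTC replicate 3, against 2.16 to 2.75% in the other 4 libraries, and the part of this difference in the ratio was not tested.

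**Figure D3:**
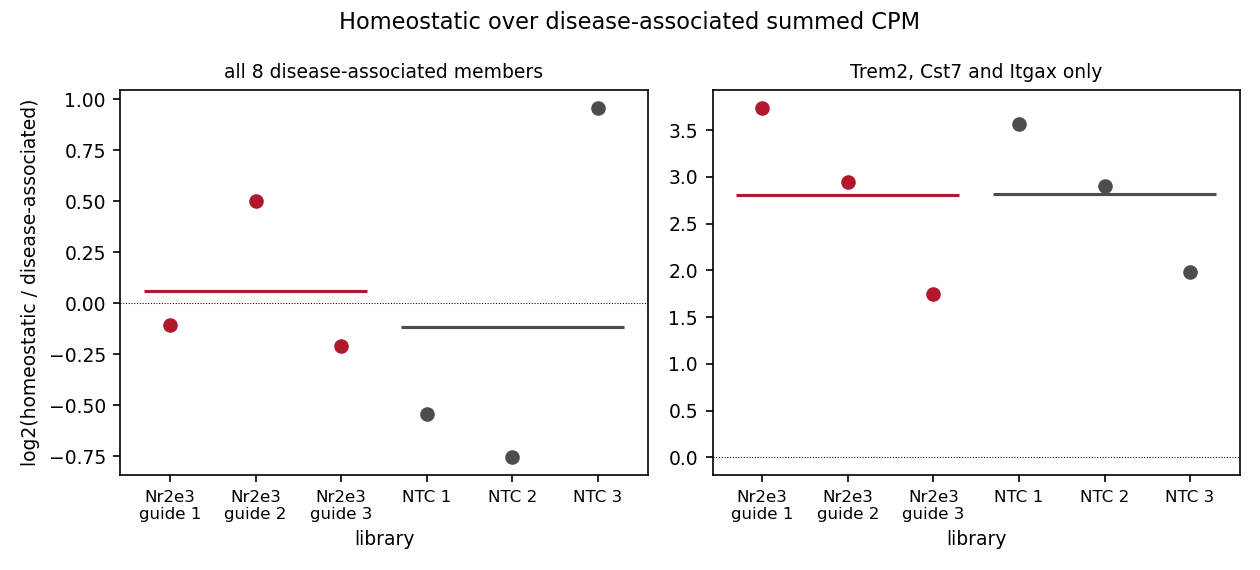
Log2 of summed homeostatic over summed disease-associated CPM in each library, with all 8 disease-associated members (left) and with Trem2, Cst7 and Itgax only (right), where points are libraries and lines are group means. NTC 3 is the highest point on the left (0.96) and among the lowest on the right (1.98).

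Set against the homeostatic sum, most members had a narrower range between libraries than in CPM. Of the 28 members with counts in every library, 23 had a narrower range per 100 CPM of homeostatic members than in CPM. Without the homeostatic members, which are part of the divisor, these were 16 of 21, with a median range of 4.52-fold in place of 11.6-fold. The same share over all genes was not taken. C3, Spi1 and Itgax, with no count in some libraries, have no such range, and C3 ran from 0 to 45.7 per 100. Tyrobp was at 15, 14.0 and 12.5 per 100 in Nr2e3 guide libraries and at 13.8, 9.43 and 13.9 per 100 in NTC libraries. C1qb was at 62.2, 83.5 and 107 per 100 in Nr2e3 guide libraries and at 67.3, 77.9 and 99.7 per 100 in NTC libraries. For both genes the groups overlapped on this scale. The sum of the 10 pan-myeloid members did not overlap: it was 319, 272 and 307 per 100 in Nr2e3 guide libraries and 239, 260.5 and 234 per 100 in NTC libraries, higher in each Nr2e3 guide library, with no test. Taken singly, each of the 10 overlapped between the groups on this scale. The largest part of the sum was Lyz2 in Nr2e3 guide replicate 1 (145 per 100) and Ctss in Nr2e3 guide replicates 2 and 3 (137 and 122 per 100).

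The members whose range became wider on this scale were Lgals3, Spp1, Lpl, Cd9 and Lcn2. Cd9 was at 45.3, 36.9 and 61.2 per 100 in Nr2e3 guide libraries and at 79.8, 88.7 and 14.9 per 100 in NTC libraries. Lcn2 was at 53.9, 23.8 and 57.9 per 100 in Nr2e3 guide libraries and at 143, 119 and 26.6 per 100 in NTC libraries. In both genes NTC replicates 1 and 2 were the highest libraries on this scale. NTC replicate 3 was the lowest for Cd9 and the second lowest for Lcn2. Groups did not overlap on this scale for 2 of the 31 members, Csf1r and Selplg, against 1.31% of all genes tested, and both are part of the divisor. Csf1r was at 31.9, 27.6 and 38.2 per 100 in Nr2e3 guide libraries and at 38.8, 46.0 and 40.8 per 100 in NTC libraries. Selplg was at 14.7, 8.65 and 10.8 per 100 in Nr2e3 guide libraries and at 4.34, 8.05 and 3.87 per 100 in NTC libraries.

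**Figure D4:**
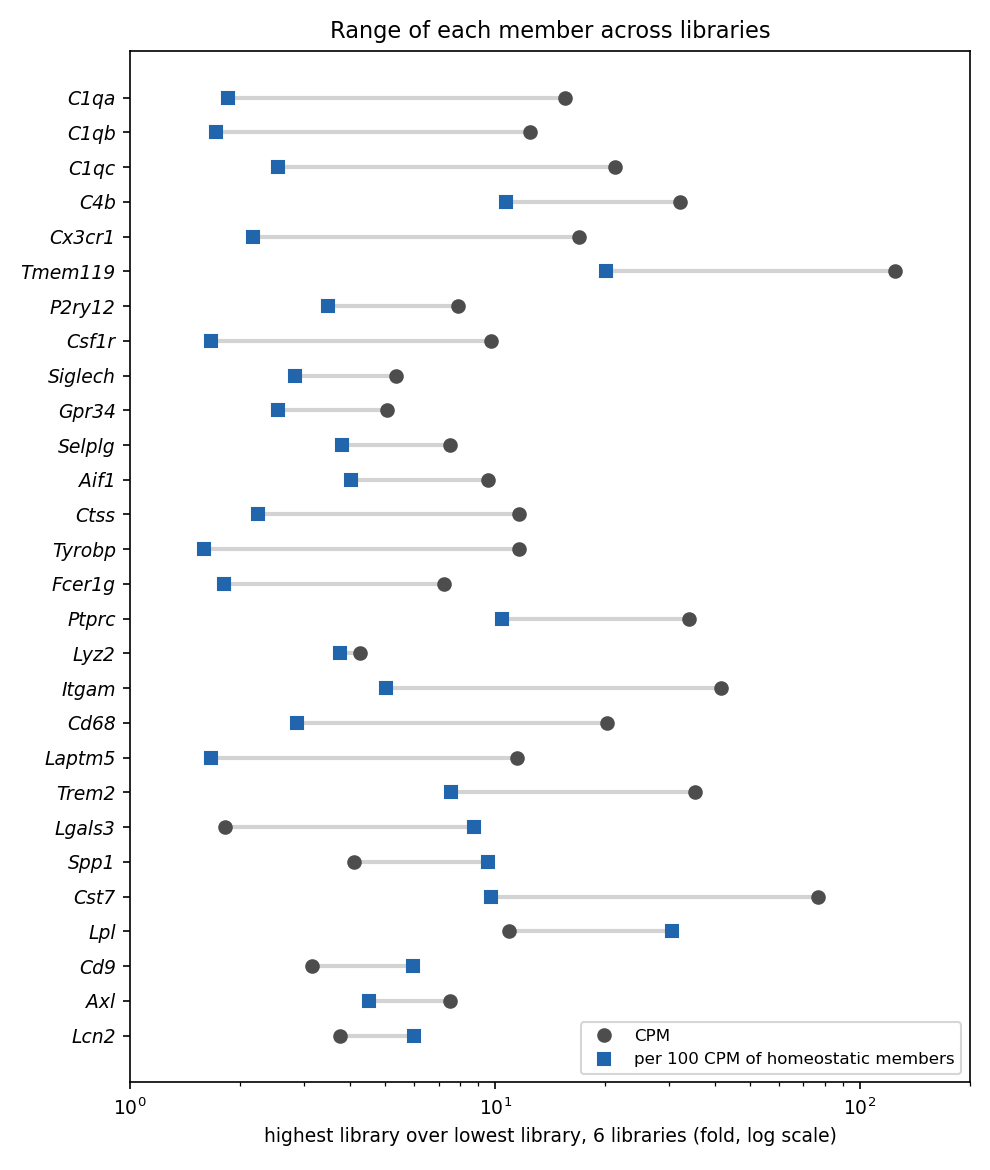
Highest over lowest of the 6 libraries for each of the 28 members with counts in every library (log axis), in CPM (grey circles) and per 100 CPM of the homeostatic members (blue squares). The square lies left of the circle for 23 members, with Tyrobp at 1.59-fold and C1qb at 1.72-fold, and right of it for Lgals3, Spp1, Lpl, Cd9 and Lcn2.

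Other genes of the same pathways gave few calls. Of 10 further homeostatic microglia genes, 9 were tested and 0 passed by edgeR or DESeq2 (0 at an unadjusted p under 0.05 in each), and 10 of 10 were higher in NTC replicate 3 than in both other NTC libraries. Olfml3, a secreted protein of microglia, was at 2.09, 9.998 and 8.19 CPM in Nr2e3 guide libraries and at 4.32, 4.37 and 25.1 CPM in NTC libraries. Of 18 further myeloid genes, 17 were tested and 0 passed by edgeR or DESeq2 with 6 libraries (0 at an unadjusted p under 0.05 in each), and 18 of 18 were higher in NTC replicate 3 than in both other NTC libraries. When NTC replicate 3 was left out, 0 passed by edgeR (4 at an unadjusted p under 0.05) and DESeq2 called 2 higher. Cd14, a receptor for bacterial lipid, was at 7.96, 12.1 and 11.6 CPM in Nr2e3 guide libraries and at 5.49, 4.25 and 10.4 CPM in NTC libraries (DESeq2 adjusted p = 0.0478 and edgeR adjusted p = 0.309 without NTC replicate 3). Pld4, an exonuclease of myeloid lysosomes, was at 2.46, 9.15 and 10.6 CPM in Nr2e3 guide libraries and at 1.62, 1.92 and 15.1 CPM in NTC libraries (DESeq2 adjusted p = 0.0291 and edgeR adjusted p = 0.358 without NTC replicate 3).

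Of 14 further disease-associated genes, all tested, 0 rose and 1 fell by edgeR, against 0.344% of all genes called. The same holds for DESeq2, against 1.58% of all genes called. By edgeR 3 of the 14 had an unadjusted p under 0.05, against 5.69% of all genes, and by DESeq2 also 3, against 6.83%. Cd52, a surface glycoprotein of leukocytes, fell to 7.85, 7.69 and 10.3 CPM in Nr2e3 guide libraries, against 23.3, 35.1 and 26.8 CPM in NTC libraries (log2 fold change -1.65, SE 0.22, edgeR adjusted p = 0.0373). Cd52 did not follow the members: NTC replicate 3 lay between the other NTC libraries, and without it the log2 fold change was -1.73 (SE 0.24, adjusted p = 0.0346). Its exons overlap those of Crybg2 on the opposite strand, so that its reads cannot be assigned to leukocytes or to the partner gene. In CPM the groups did not overlap for Cd52, Cd63 and Ctsl, lower with the Nr2e3 guide, and for Ctsb, higher. Over all genes tested this share was 12.2%. Cd63 was at 14.6, 28.1 and 23.5 CPM in Nr2e3 guide libraries and at 37.1, 33.6 and 54.2 CPM in NTC libraries. Ctsl was at 84.4, 75.5 and 72.5 CPM in Nr2e3 guide libraries and at 89.2, 93.0 and 94.8 CPM in NTC libraries. Ctsb and Ctsd, lysosomal proteases that most cells make, were the most abundant genes of this list and did not pass with 6 libraries. Ctsb was at 2339, 2011 and 2124 CPM in Nr2e3 guide libraries and at 1557, 1471 and 1990 CPM in NTC libraries, and DESeq2 without NTC replicate 3 called it higher (log2 fold change 0.53, adjusted p = 0.0325; edgeR adjusted p = 0.247).

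Of 17 further complement genes, 13 were tested and 0 passed by edgeR or DESeq2 (0 at an unadjusted p under 0.05 in each). The abundant ones were regulators. Vtn, vitronectin, was at 4328, 4119 and 4342 CPM in Nr2e3 guide libraries and at 3802, 3722 and 3992 CPM in NTC libraries, and Clu, clusterin, at 613, 1023 and 753 CPM in Nr2e3 guide libraries and at 315, 311 and 1024 CPM in NTC libraries. Clu thus had its lowest values in the same NTC libraries as the members, and without NTC replicate 3 DESeq2 called it higher (log2 fold change 1.38, adjusted p = 1.08e-05) while edgeR did not (adjusted p = 0.103). The receptor for the C3 fragment anaphylatoxin, C3ar1, which was picked out after its values were seen, was at 0.697, 3.89 and 4.14 CPM in Nr2e3 guide libraries and at 1.35, 1.18 and 9.60 CPM in NTC libraries.

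Markers of other cells were summed in the same libraries, and their part in the level of the members was not tested. The 10 genes of border macrophages and monocytes summed to 10.8, 4.65 and 11.4 CPM in Nr2e3 guide libraries and to 18.5, 11.9 and 8.604 CPM in NTC libraries. Lyve1, a hyaluronan receptor and the most abundant of them, was at 4.18, 1.30 and 5.05 CPM in Nr2e3 guide libraries and at 10.1, 7.20 and 1.28 CPM in NTC libraries. Of the 10 genes, 4 were higher in NTC replicate 3 than in both other NTC libraries, namely Ms4a7, Ly6c2, Plac8 and Chil3. Ms4a7, a membrane protein of macrophages, was at 0.623, 2.19 and 1.99 CPM in Nr2e3 guide libraries and at 1.20, 0.885 and 3.76 CPM in NTC libraries. Ly6c2, Plac8 and Chil3 were at or below 0.514 CPM in Nr2e3 guide libraries and at or below 0.321 CPM in NTC libraries. Ccr2, which defines monocytes, had 1 count in Nr2e3 guide replicate 1 and 0 in the other 5 libraries. The 11 genes of neutrophils and lymphocytes summed to at most 1.78 CPM in Nr2e3 guide and 1.66 CPM in NTC libraries, and the neutrophil genes Ly6g and Retnlg were at 0 in every library. The 8 Muller glia genes summed to 123, 117 and 238 CPM in Nr2e3 guide libraries and to 236, 263 and 134 CPM in NTC libraries, and the 5 pigment epithelium genes to 1.54, 0.243 and 2.05 CPM in Nr2e3 guide libraries and to 11.7, 12.8 and 0.0583 CPM in NTC libraries. NTC replicate 3 was the lowest NTC library for both of these lists and the highest for the members.

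A list of 6 photoreceptor injury genes summed to 38.8, 93.7 and 76.8 CPM in Nr2e3 guide libraries and to 32.2, 39.6 and 320 CPM in NTC libraries. Edn2, an endothelin made by stressed photoreceptors, was at 4.18, 29.5 and 14.4 CPM in Nr2e3 guide libraries and at 2.45, 5.28 and 141 CPM in NTC libraries. Stat3, a factor of the injury response, was at 23.9, 40.0 and 42.0 CPM in Nr2e3 guide libraries and at 24.7, 26.5 and 115 CPM in NTC libraries. All 6 genes were higher in NTC replicate 3 than in both other NTC libraries, but Gfap, the filament protein of reactive glia, was highest in Nr2e3 guide replicate 3, at 2.75, 3.56 and 7.92 CPM in Nr2e3 guide libraries and 1.502, 2.89 and 4.20 CPM in NTC libraries. Lif, a cytokine, was highest in Nr2e3 guide replicate 1, at 0.843, 0 and 0.242 CPM in Nr2e3 guide libraries and 0, 0 and 0.0875 CPM in NTC libraries. Of these 6 genes, 5 were tested and 0 passed by edgeR or DESeq2 with 6 libraries (0 at an unadjusted p under 0.05 in each), while without NTC replicate 3 DESeq2 called 1 higher, the protease inhibitor gene Serpina3n (adjusted p = 0.0298; edgeR adjusted p = 0.345). Whether these genes have a part in the level of the members was not tested.

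**Figure D5:**
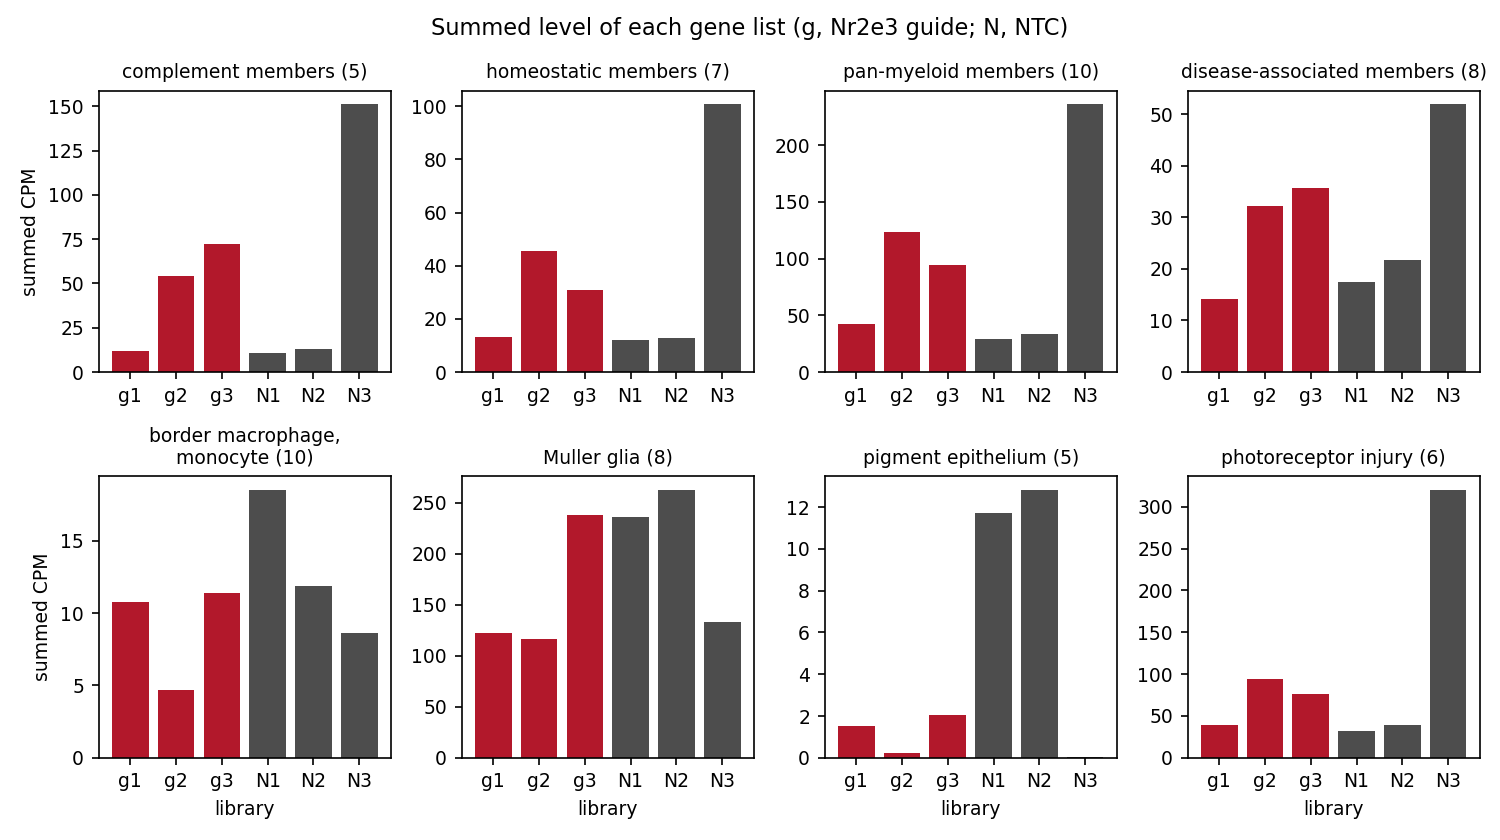
Summed CPM of the member groups (top) and of 4 lists of other genes (bottom) in each library, Nr2e3 guide in red and NTC in grey, with the number of genes in parentheses and axes from 0. N3 is the tallest bar for the 4 member groups and for the injury genes, and it is the lowest NTC bar for border macrophage, Muller glia and pigment epithelium genes.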

How the data were processed

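RNA from sorted mCherry-positive cells was measured in 3 Nr2e3 guide and 3 NTC libraries. Per the labels' protocols, RNA was isolated with Trizol and libraries were made with SMARTer Ultra Low reagents, a chemistry without strand information. The authors deposited read counts for each gene symbol, as raw whole numbers in a file for every library. The submitters' processing notes list cutadapt, STAR (2.7.3a), HTSeq (0.12.4), DESeq2 (1.42.0) and the builds GRCm38 and mm10. Which annotation and strand option HTSeq used is not given in the sources used here. The 5 entries that name no gene held 21.6 to 23.7% of counts and were left out.

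Nr2e3 guide was tested against NTC with edgeR version 4.0.16 under R version 4.3.3: TMM factors, filterByExpr with a minimum count of 10, the quasi-likelihood test and Benjamini-Hochberg adjustment over all genes tested, with a threshold of 0.05. DESeq2 1.42.0 and limma 3.58.1 (voom with quality weights), other scalings and filters, a replicate block, a sex term, males alone and libraries left out in turn were alternatives; DESeq2 without NTC replicate 3 was added after seeing the data. The edgeR step was tested on simulated data. CPM use the gene counts of a library without TMM factors. Gene coordinates are from RefSeq on GRCm38.p6, and exon lengths and overlaps from GENCODE M21.

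The libraries come from separate animals, and a chi-square comparison found no duplicates within a group. The limit of 3 counts covers counting error alone, as there were no molecular identifiers. Members, lists and tests were chosen with earlier results of these data known. Any member may be named. From each other list that is described, up to 4 called genes with the smallest p were named or, with none called, the 2 of highest mean CPM. Ctsb, Ctsd, Cd63, Ctsl, C3ar1, Lyve1, Ccr2, Ly6g, Retnlg, Serpina3n, Ms4a7, Ly6c2, Plac8, Chil3, Gfap, Lif, Cx3cl1 and Cd200 were named after their values were seen. Not every gene that this rule names is reported here.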

Additional observations from a re-analysis of the deposited data

How the results depend on the processing

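With 6 libraries and the reported settings 59 genes were called, and 0 of the 29 members. The number of genes called was 91 at an adjusted p under 0.1, 271 with DESeq2, 179 with limma-voom, 155 without a count filter, 6 with sex as a term and 0 among males only (edgeR, 1752 at an unadjusted p under 0.05). DESeq2 without NTC replicate 3, chosen after seeing the data, called 471 genes, 5 of them members. Leaving out each library in turn gave 14 to 89 genes and 0 members, with 89 genes without NTC replicate 3. Under every other setting 0 members were called.

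With a replicate block 32 genes were called. Same-numbered libraries come from different animals. Their deviations correlated at 0.136, -0.14 and 0.044, and not every sample correlated best with its own number. Whether same-numbered libraries were handled together was not tested. The log2 fold change under the block was 0.16 for C1qb, 1.43 for Tmem119, 0.30 for Laptm5 and 0.092 for Trem2, each of the opposite sign to the reported value, and 10 of 29 members changed sign.

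Without NTC replicate 3, 14 of 29 members changed sign. Leaving out each library in turn, the log2 fold change ran from -0.91 to 1.57 for C1qb, -0.20 to 3.84 for C4b, -1.15 to 0.88 for Csf1r, -0.60 to 4.57 for Tmem119, -0.43 to 2.21 for Ctss, -1.02 to 1.46 for Laptm5, -0.23 to 0.92 for Lyz2 and -1.01 to 1.98 for Trem2. DESeq2 without NTC replicate 3 gave 1.57 for C1qb, 0.87 for Csf1r, 4.62 for Tmem119, 1.45 for Laptm5 and 1.97 for Trem2. Without both replicate-3 libraries the values were 1.44 for C1qb, 0.75 for Csf1r, 1.38 for Laptm5 and 1.31 for Trem2. By limma-voom, where 15 of 29 members changed sign, they were 0.85 for C1qb, 0.36 for Csf1r, 3.32 for Tmem119, 1.08 for Laptm5 and 0.57 for Trem2. With upper-quartile factors Tmem119 was at 0.0013. With sex as a term the values were -2.15 for C4b, -1.62 for Ctss and -0.91 for Cd9, and among males only -2.16, -1.63 and -0.92 for the same genes in that order. These 2 settings make the same contrast. As all NTC animals were male and both females had the Nr2e3 guide, each sets the single Nr2e3 guide replicate 1 against the NTC libraries. The log2 ratio of homeostatic to disease-associated members differed by 0.17 between groups, by 0.0068 among males only and by 0.85 without both replicate-3 libraries. The cause of these changes was not tested. Selplg, Lcn2 and Lpl kept their direction under every setting that tested them. With 3 animals a group and most members under 20 CPM, differences several times the SE also failed to pass. C4b without NTC replicate 3, at 3.84 (SE 0.97), had an edgeR adjusted p of 0.272.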

Other observations

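Genes by which neurons and glia address phagocytes were measured in the same libraries. Of 8 genes that bridge dying cells to phagocytes, 7 were tested. By edgeR 0 passed, against 0.344% of all genes, and 1 had an unadjusted p under 0.05, against 5.69%. By DESeq2 1 was called, higher, against 1.58% of all genes, and 2 had an unadjusted p under 0.05, against 6.83%. The gene called was Gas6, the ligand that links phosphatidylserine to the receptors Axl and Mertk. Gas6 was at 112, 86.9 and 115 CPM in Nr2e3 guide libraries and at 55.9, 58.3 and 79.1 CPM in NTC libraries, and the groups did not overlap (log2 fold change 0.78, DESeq2 adjusted p = 0.00362; edgeR adjusted p = 0.166). Its exons overlap those of Tmem255b on the opposite strand. Besides Gas6, 1 other of the 8 genes did not overlap between the groups and was lower in Nr2e3 guide libraries, while 12.2% of all genes tested did not overlap. Axl itself was among the members and showed no such separation.

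Of 9 signals between neurons and microglia, 6 were tested and 0 passed by edgeR or DESeq2 (0 at an unadjusted p under 0.05 in each). Sirpa, the receptor for the signal that restrains uptake, was at 59.98, 53.9 and 65.3 CPM in Nr2e3 guide libraries and at 63.2, 72.9 and 96.2 CPM in NTC libraries. Cd47, that signal, was at 26.98, 32.02 and 27.2 CPM in Nr2e3 guide libraries and at 22.1, 22.6 and 71.2 CPM in NTC libraries, and NTC replicate 3 was the highest library. Of the 9 genes, 4 were higher in NTC replicate 3 than in both other NTC libraries. Cx3cl1, the ligand of Cx3cr1, was not: it was at 0.733, 0.971 and 3.32 CPM in Nr2e3 guide libraries and at 3.16, 3.10 and 0.467 CPM in NTC libraries. Cd200, a neuronal ligand that restrains myeloid cells, was at 5.72, 0.810 and 8.01 CPM in Nr2e3 guide libraries and at 8.28, 8.58 and 2.48 CPM in NTC libraries.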
